A study of Caenorhabditis elegans with 9 samples.

Results

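The comparison described here is between *daf-1* mutants and *daf-1*; *daf-3* double mutants of *C. elegans*, and it uses 6 of the 9 RNA-seq libraries of the study, 3 replicates of each mutant genotype. The single mutant carries *daf-1*(*m40*) and the double mutant carries *daf-1*(*m40*) together with *daf-3*(*mgDf90*), so *m40* is shared by both and the genotypes differ by the *daf-3* allele. *mgDf90* is a deletion, and the double mutant is a strain that was made by genetic crosses. The other 3 libraries are from the wild type N2, whose levels are given beside the mutant values with no test. Every library was made from poly(A)-selected RNA out of total RNA of whole worms, synchronized hermaphrodites fed NA22 *E. coli* and grown at 16 °C until L4 and then at 25 °C, for 25 h according to the labels and 24 h according to the methods. RNA from a whole animal cannot tell fewer cells of a type from less RNA per cell. The genes compared were all entries that name a gene and reached 0.5 FPKM in at least 2 of the 6 libraries, which are 13650 of 40313 entries.

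The DAF-7 TGFβ pathway carries signals from sensory neurons that promote reproductive growth over entry into the dauer larva. The ligand DAF-7 binds the receptors DAF-1 and DAF-4, which act through the SMAD proteins DAF-8 and DAF-14 to inhibit the co-SMAD DAF-3 and its partner DAF-5. In *daf-1* mutants DAF-3 is therefore left active, and loss of *daf-3* suppresses many *daf-1* phenotypes. The comparison asks which transcripts differ between animals that lack normal *daf-1* function and animals that carry the *daf-3* deletion as well.

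Levels are FPKM values, read fragments scaled to transcript length and library size. FPKM totals were 763349 to 841396 in *daf-1* mutants and 857271 to 959313 in double mutants, with 16063 to 17196 entries above 0 in each library. The yolk protein gene *vit-2*, which adult hermaphrodites express in the intestine, was at 4617 to 6179.6 FPKM in the 9 libraries. Double mutant replicate 3 stood apart, and the study left it out after a principal component analysis. From quantitative PCR on RNA of batch 3, the study also considered that this library may be a real outlier. The entry Y53H1C.11 was above 0 in this library alone, at 43891.5 FPKM or 5.12% of the total, and the 10 highest entries held 10.7% of the total, against 4.83 to 6.57% in the other 8 libraries. All 3 batches are kept below, each holding 1 library per genotype, and counts of calls without this library are given beside the gene lists whose difference is near 0 or below it in batch 3.

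Across the genome, few genes passed the test with all 3 batches in the fit. With the replicate number, which is the batch, as a block, limma called 27 entries (0.198% of those tested) at a Benjamini-Hochberg adjusted p below 0.05 and at least 2-fold: 7 (0.0513%) with more transcript in *daf-1* mutants and 20 (0.147%) with less. Without regard to size, 2267 entries (16.6%) were higher and 3713 (27.2%) lower in each batch, and the libraries of the genotypes did not overlap for 1063 (7.79%) and 2091 (15.3%). Without the block 59 entries (0.432%) were called, 21 (0.154%) higher and 38 (0.278%) lower, and 25 of the 27 remained. Without double mutant replicate 3 the blocked fit called 819 of 13432 entries (6.1%), of which 713 (5.31%) were higher and 106 (0.789%) lower, and all 27 remained. The fit with neither that library nor the block called 1751 (13.0%), of which 1560 (11.6%) were higher and 191 (1.42%) lower. In a blocked fit a batch that has lost 1 of its libraries no longer adds to the difference, so these calls rest on batches 1 and 2. Without batch 1 fewer calls were left: the blocked fit called 7 entries without double mutant replicate 1 and 22 without *daf-1* replicate 1, and 4 and 15 of the 27 remained. Log2 differences are given as *daf-1* minus double mutant on the scale of log2(FPKM + 0.25), which understates differences of genes with low values.

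**Figure D1:**
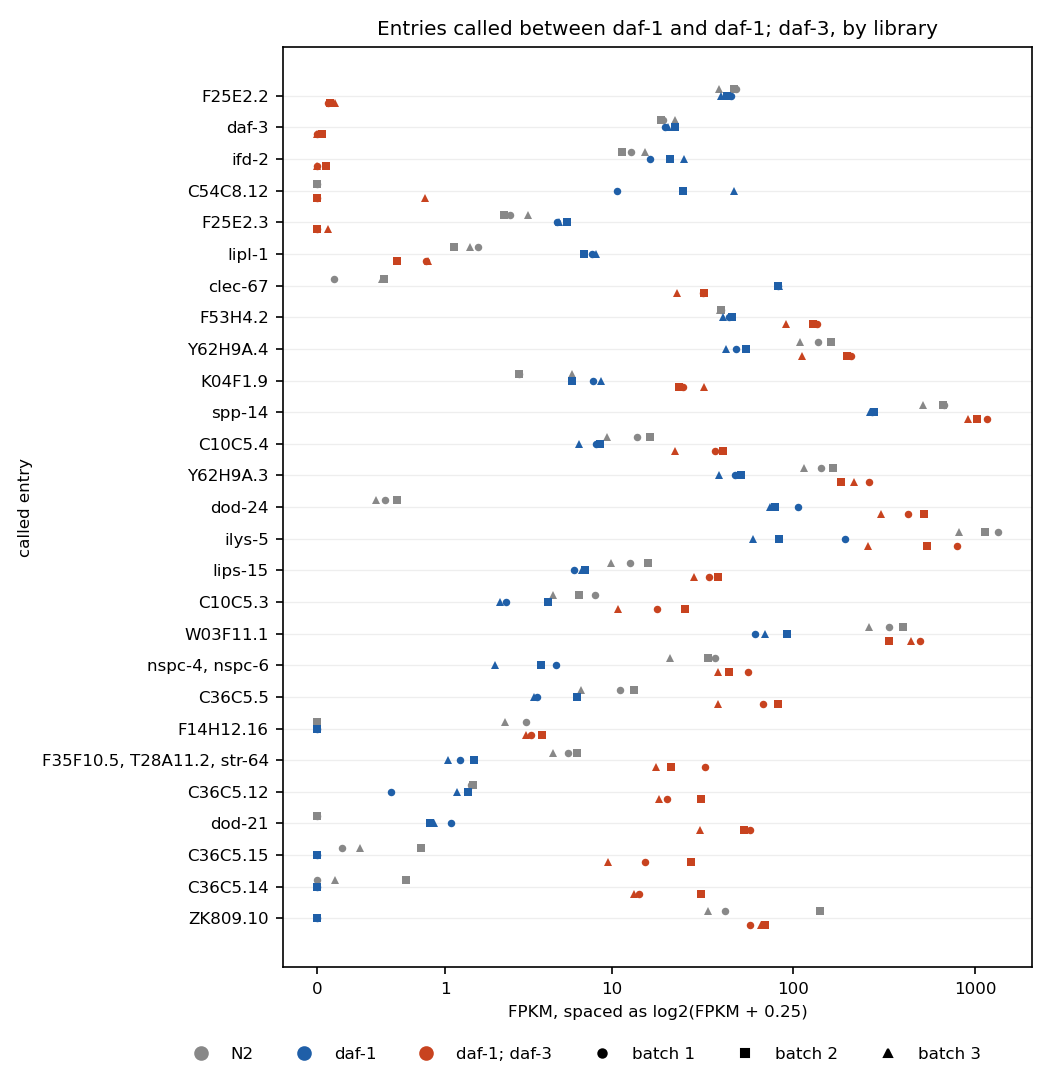
FPKM of the 27 called entries in each library, on an axis spaced as log2(FPKM + 0.25), with 1 color per genotype and symbols for batches 1, 2 and 3. The 7 entries at the top are higher in all 3 *daf-1* libraries than in all 3 double mutant libraries, and the 20 below them are lower.

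The deleted gene matched the genotype label of every library. *daf-3* (X:817922-825475, build WBcel235) was measured at 19.9, 22.3 and 20.6 FPKM in *daf-1* replicates 1, 2 and 3, and was listed at 0, 0.0147 and 0 FPKM in double mutant replicates 1, 2 and 3. N2 had 19.2, 18.8 and 22.5 FPKM. Double mutant replicate 3 lacked *daf-3* signal as replicates 1 and 2 did, and the call of *daf-3* (limma adjusted p = 0.0067) was kept in all 23 refits with another setting or with a library left out.

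Beside *daf-3*, 3 neighboring genes on the side with lower coordinates had next to no signal in the double mutants. F25E2.2 (X:806991-810794) was at 45.4, 43.4 and 40.3 FPKM in *daf-1* mutants and at 0.0365, 0.0414 and 0.0636 FPKM in double mutants. *ifd-2* (X:813854-815929), an intermediate filament gene, was at 16.3, 20.9 and 25.3 FPKM against 0, 0.0285 and 0. F25E2.3 (X:811173-813163), with 4.89, 5.55 and 5.01 FPKM against 0, 0 and 0.0342, lies between them. The 3 genes were at levels of 39.3 to 48.8, 11.4 to 15.3 and 2.37 to 3.30 FPKM in N2, in the same order, so the wild type expressed all 3. Their adjusted p values were 0.00347 for F25E2.2, 0.0067 for *ifd-2* and 0.0202 for F25E2.3. Together with *daf-3* they are 4 of the 7 entries called higher in *daf-1* mutants, and F25E2.2, *ifd-2* and *daf-3* were among the 4 entries called in all 23 refits. The double mutants thus lacked signal of these 3 genes as well as of *daf-3*. The part of each gene, and of the strain background, in the other differences was not tested.

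The nearest tested entries on both sides of these genes kept signal in the double mutants. Stretches with no tested entry lie between, so where the loss ends is not known. Within 100 kb of *daf-3*, 24 entries were tested and these 4 were the only ones called. The nearest tested entry at lower coordinates, which joins *attf-5* and *gtr-1* (X:788353-796154), had log2 differences of −0.03, −0.25 and −0.05 in batches 1, 2 and 3. At higher coordinates the nearest was F39H12.1 (X:834778-837823), at 7.75, 7.54 and 7.31 FPKM in *daf-1* mutants and 5.20, 4.73 and 4.06 in double mutants. Its libraries did not overlap, but the log2 difference of 0.67 (SE 0.20) did not pass the test (adjusted p = 0.272). Farther out, *mam-1* and *mab-7* had differences of 3.46 and 2.40 in batch 1 and of 2.07 and 1.72 in batch 2, and of −0.36 and 0.03 in batch 3.

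**Figure D2:**
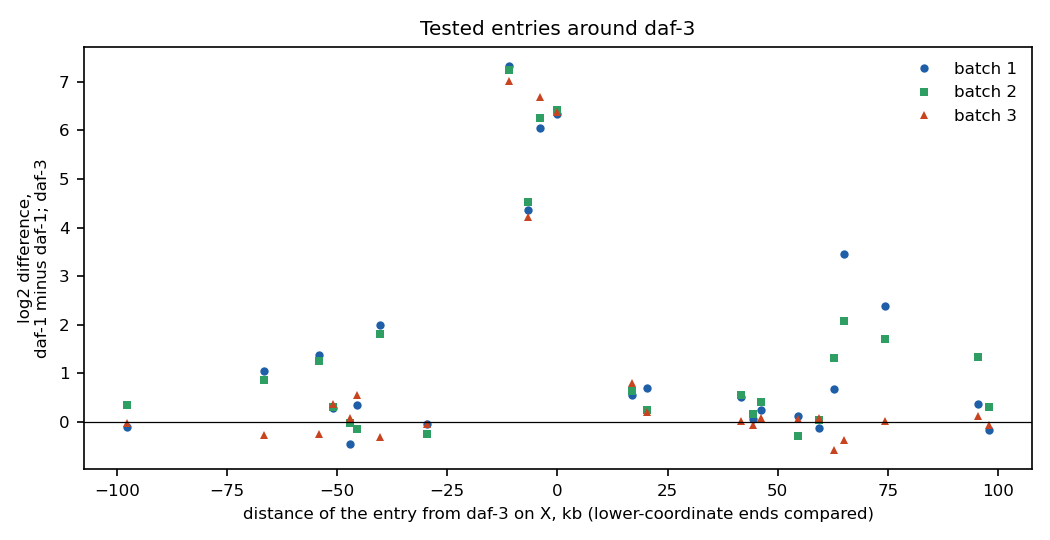
Log2 difference, *daf-1* minus double mutant, of the 24 tested entries within 100 kb of *daf-3* on X, plotted against the distance in kb between lower-coordinate ends, with 1 symbol per batch. The 4 called entries lie together between 4.21 and 7.32 in all 3 batches, while the other 20 were not called. Of those, *mam-1* reaches 3.46 in batch 1 and is at −0.36 in batch 3.

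The other genes of the DAF-7 pathway did not pass the test. Upstream, the ligand gene *daf-7* was at 5.31, 4.71 and 4.78 FPKM in *daf-1* mutants against 3.40, 3.49 and 3.40 in double mutants and 3.23 to 3.85 in N2. The genotypes did not overlap for *daf-7*, with a log2 difference of 0.49 (SE 0.23, adjusted p = 0.286). The receptor gene *daf-1*, whose *m40* allele both genotypes carry, was at 12.8 to 13.9 FPKM in the single and 13.0 to 14.5 in the double mutants, below the 21.6 to 23.7 of N2. *daf-4*, which encodes the other receptor, shares 1 entry with another gene, C05D2.11, at 28.3 to 31.5 and 25.2 to 29.8 FPKM. Of the SMAD genes, *daf-8* had a log2 difference of 0.33 (SE 0.19, adjusted p = 0.343) and *daf-14* of 0.25 (SE 0.18, adjusted p = 0.402). *daf-5*, whose product acts with DAF-3, went the other way, with 27.4, 27.9 and 28.3 FPKM against 34.8, 38.0 and 58.1 (adjusted p = 0.272). Among 16 other tested genes with a part in dauer formation, none was called or had an unadjusted p below 0.05 in limma. Their median log2 difference was 0.04. *daf-6*, a gene of the glia that sheathe sensory endings, had the smallest p of them, with differences of 2.01, 1.96 and −0.10 in the 3 batches. Without double mutant replicate 3, 1 of the 16 genes was called higher and 0 lower, against 5.31% and 0.789% of all entries tested there.

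Away from the *daf-3* locus, 3 genes were called higher in *daf-1* mutants, and each was in the same direction and more than 2-fold in every batch. *lipl-1*, a lysosomal lipase gene, was at 7.69, 6.92 and 8.10 FPKM in *daf-1* mutants and at 0.732, 0.431 and 0.763 FPKM in double mutants. Its level in N2 was 1.14 to 1.65 FPKM, between the mutants. The log2 difference of *lipl-1* was 3.15 (SE 0.27, adjusted p = 0.0379). *clec-67* encodes a C-type lectin, a family of sugar-binding proteins of which many respond to microbes. It was at 83.2, 83.1 and 83.4 FPKM in *daf-1* mutants and at 32, 32.6 and 23.1 FPKM in double mutants. N2 had only 0.0595 to 0.328 FPKM of *clec-67*, so the double mutants, although lower than *daf-1* mutants (log2 difference 1.52, SE 0.14, adjusted p = 0.0466), were far above the wild-type values. The third gene, C54C8.12, was listed at 0 in all 3 N2 libraries and in double mutant replicates 1 and 2, at 0.721 FPKM in replicate 3, and at 10.6, 24.8 and 47.6 FPKM in *daf-1* mutants (adjusted p = 0.0118). *lipl-1*, *clec-67* and C54C8.12 were still called in 15, 14 and 16 of the 23 refits.

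With the 7 called entries, 150 entries (1.1%) were at least 2-fold higher in *daf-1* mutants in each batch, so most of them did not pass the adjusted threshold. The neuropeptide gene *nlp-39*, which lies near C54C8.12 on chromosome I, was at 8.61, 19.1 and 28.7 FPKM in *daf-1* mutants and 1.07, 0.135 and 1.11 in double mutants (adjusted p = 0.108). *pud-3* and *pud-4*, neighbors on chromosome V named for rising in *daf-2* mutants, had the same order of levels. *pud-3* was at 1236, 1154 and 1003 FPKM against 134, 110.1 and 13.8, and *pud-4* at 362, 309 and 275 against 53.8, 37.3 and 9.39. Their log2 differences of 4.25 (SE 0.60, adjusted p = 0.114) and 3.54 (SE 0.41, adjusted p = 0.0738) were highest in batch 3, where the double mutant was lowest. *gpx-3*, a glutathione peroxidase gene, and *srg-31*, a gene of the serpentine receptor family, had log2 differences of 1.83 (SE 0.21, adjusted p = 0.0738) and 2.92 (SE 0.31, adjusted p = 0.0656). Genes of lipid and drug metabolism in this group were the desaturase gene *fat-5* (log2 difference 1.38, adjusted p = 0.138), the cytochrome P450 gene *cyp-35A5* (2.05, adjusted p = 0.114) and the glucuronosyltransferase gene *ugt-63* (2.76, adjusted p = 0.177). As families, 9 of 44 P450 genes were higher and 5 lower at an unadjusted p below 0.05, and 12 and 6 of 75 UGT and GST genes, where 8.56% of all tested entries were higher and 9.51% lower. limma called no member of either family.

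The genes called lower in *daf-1* mutants, that is higher in the double mutants, included a saposin gene and a lysozyme gene. *spp-14*, which encodes a saposin-like protein, a family with members that attack bacterial membranes, was at 273, 280.2 and 265 FPKM in *daf-1* mutants against 1156, 1017 and 910.5 FPKM in double mutants. N2 lay between them, at 516 to 669.8 FPKM. The log2 difference of −1.91 (SE 0.11, adjusted p = 0.0118) was called in 20 of 23 refits. *ilys-5*, an invertebrate-type lysozyme gene, was at 194, 84.4 and 60.2 FPKM against 791, 547 and 259. Its levels were lowest in batch 3 in both mutants and in N2, which had 1330.0, 1128 and 813 FPKM, and its log2 difference within batches was −2.03, −2.69 and −2.10. The difference of *ilys-5* (−2.27, SE 0.16, adjusted p = 0.0202) was called in 14 of 23 refits, with adjusted p from 0.00152 to 0.578.

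These 2 genes were the only members called among 28 tested lysozyme and saposin genes, of which 8 were higher and 6 lower at an unadjusted p below 0.05 in limma, with a median log2 difference of 0.11 (−0.01 over all tested entries). Others of the list had the opposite order: *spp-18* was at 269, 186 and 227 FPKM in *daf-1* mutants against 108, 64.7 and 132 in double mutants (log2 difference 1.21, adjusted p = 0.108). *spp-2* was at 184, 115 and 137 against 87.9, 50.8 and 378. The C-type lectins were as mixed, with 15 of 94 higher and 11 lower at an unadjusted p below 0.05, *clec-67* called higher, and a median of 0.20. Of all tested entries, 8.56% were higher and 9.51% lower at that p. Among lectins that did not pass, *clec-61* was at least 2-fold higher in each batch (4.23, adjusted p = 0.114) and *clec-51* at least 2-fold lower (−1.73, adjusted p = 0.0738). Without double mutant replicate 3, 2 lysozyme and saposin genes were called higher and 3 lower, and 11 lectins higher and 3 lower. Of all entries tested there, 5.31% were called higher and 0.789% lower.

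A second set of lower genes, *dod-21* and *dod-24*, belongs to genes with CUB-like domains that were named for acting downstream of *daf-16*, and many of them respond to pathogens. *dod-24* was at 107, 80.1 and 74.9 FPKM in *daf-1* mutants and at 429, 524 and 305 FPKM in double mutants, while N2 had 0.276 to 0.428. *dod-21* was listed at 0 in every N2 library, was at 1.09, 0.790 and 0.843 FPKM in *daf-1* mutants and reached 58.1, 54.0 and 31.0 FPKM in double mutants. Both genes were therefore lowest in N2 and highest in the double mutants. The log2 differences were −5.33 (SE 0.25, adjusted p = 0.0067) for *dod-21* and −2.24 (SE 0.17, adjusted p = 0.0237) for *dod-24*, and *dod-21* was called in 22 of 23 refits. They lie in a stretch of chromosome IV (IV:12912722-12944526) in which 6 of 8 tested entries were lower in *daf-1* mutants in each batch and 4 at least 2-fold, against 27.2% and 0.63% of all tested entries. C32H11.9 in that stretch was at 0.210, 0.234 and 0.382 FPKM against 31.7, 19.0 and 8.31 and just missed the threshold (adjusted p = 0.0554). The whole list of 28 CUB-like and *dod* genes had a median of only −0.14, with 4 higher and 9 lower at an unadjusted p below 0.05 (8.56% and 9.51% of all tested entries). Without double mutant replicate 3, 1 of the 28 was called higher and 5 lower, against 5.31% and 0.789% of all entries tested there.

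A run of genes on chromosome V (V:3157086-3369922) held 5 further called entries, most of them near 0 in *daf-1* mutants. C36C5.14 was listed at 0 in all 3 *daf-1* libraries and was at 14.2, 31.4 and 13.3 FPKM in double mutants (adjusted p = 0.0118). C36C5.15 was likewise at 0 against 15.3, 27.4 and 9.52 FPKM (adjusted p = 0.0166). N2 had at most 0.510 FPKM of C36C5.14 and 0.671 of C36C5.15, so the double mutants lay above the wild type here too. C36C5.12 was at 0.385, 1.42 and 1.21 against 20.3, 31.1 and 18.3 FPKM, with a log2 difference of −4.30 (SE 0.32, adjusted p = 0.0235). C36C5.5, whose current symbol in the annotation is *exh-1*, was at 3.74, 6.38 and 3.59 against 68.2, 83.3 and 38.8 FPKM (−3.70, SE 0.19, adjusted p = 0.0092). The other entry joins F35F10.5, T28A11.2 and *str-64*, whose values cannot be read apart, at 1.05 to 1.55 against 17.5 to 33.0 FPKM. Of 25 entries tested in this run, 15 were lower in each batch and 10 at least 2-fold, against 27.2% and 0.63% of all tested entries. The run begins with C36C5.5 and ends with C04E12.2, both at least 2-fold lower in each batch, so its counts partly follow from its limits. The Notch ligand genes *lag-2* and *apx-1* lie inside it and had log2 differences of −0.06 (SE 0.29) and −0.25 (SE 0.12) that did not pass the test.

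At the left end of the X chromosome (X:261-104777) 8 of 9 tested entries were lower in *daf-1* mutants in each batch, against 27.2% of all tested entries. None of the 9 was called. One of them, Y73B3A.4, was at 8.81, 8.71 and 8.86 FPKM in *daf-1* mutants and 21.2, 20.7 and 20.5 in double mutants, with 11.2 to 14.3 in N2. Its log2 difference of −1.22 (SE 0.15) had an adjusted p of 0.0833, and the median of the 9 entries was −1.22. Another pair of neighbors, C10C5.3 and C10C5.4 on chromosome IV, was called. C10C5.3 was at 2.46, 4.33 and 2.26 FPKM against 17.9, 25.5 and 10.9, with 4.59 to 8.01 in N2. These stretches of chromosomes IV, V and X were singled out after their values were seen.

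Single genes called lower in *daf-1* mutants lay on several chromosomes. W03F11.1, now *ule-1* and named for a secreted protein of the uterine lumen, was at 62.2, 92.4 and 70.2 FPKM in *daf-1* mutants against 496, 338 and 446 in double mutants, a difference of −2.51 (SE 0.22, adjusted p = 0.0388). N2 had 262 to 402 FPKM of W03F11.1, which overlaps the double mutants. Y62H9A.3 was at 47.9, 52.1 and 39.5 against 262, 184 and 218 FPKM (−2.24, SE 0.16, adjusted p = 0.0202), and its neighbor Y62H9A.4, chosen after its values were seen, was called as well (−1.78, adjusted p = 0.0388). *nspc-4* and *nspc-6*, of a nematode-specific peptide family, share an entry at 4.79, 3.93 and 2.10 against 57.0, 44.5 and 38.5 FPKM (adjusted p = 0.0092). The lipase-related gene *lips-15* was at 6.07, 7.02 and 6.74 against 34.5, 38.9 and 28.4 FPKM, with 9.92 to 15.9 in N2 (−2.31, SE 0.16, adjusted p = 0.0202). The short noncoding RNA ZK809.10 was listed at 0 in all *daf-1* libraries and at 58.5, 70.4 and 66.6 FPKM in double mutants (adjusted p = 0.00313), and it too was called in all 23 refits. An exact 0 can be a failed estimate for so short a transcript, and N2 ranged from 34.1 to 142 FPKM. The remaining called entries were F14H12.16, also short and listed at 0 in *daf-1* mutants, K04F1.9 (−1.81) and F53H4.2 (−1.41).

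With the 20 called entries, 86 entries (0.63%) were at least 2-fold lower in *daf-1* mutants in each batch. Of those that were not called, F59C6.18 had the widest gap, at 0.279, 1.98 and 0.688 FPKM against 477, 245 and 55.3 (adjusted p = 0.0562), and the cuticle collagen gene *col-96* was at 21.4, 39.2 and 20.6 against 581, 439 and 87.7 (adjusted p = 0.114). In both the double mutant value was lowest in batch 3 and still above every *daf-1* library. The neuropeptide gene *flp-6* was steadier, at 15.1, 17.0 and 18.7 FPKM against 56.0, 44.0 and 49.5 (−1.54, SE 0.15, adjusted p = 0.0562). *ins-6*, an insulin-like gene that acts in the decision for or against the dauer stage, was at 0.217, 0.359 and 0 FPKM in *daf-1* mutants and at 2.70, 2.94 and 1.47 in double mutants (adjusted p = 0.0873). N2 had 0.969 to 2.25 FPKM of *ins-6*.

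Many more entries differed at least 2-fold in batches 1 and 2 than in all 3 batches. The blocked fit calls entries whose batches agree, so the agreement of the called entries in batch 3 is no separate result. In batches 1 and 2, 1225 entries (8.97%) were at least 2-fold higher in *daf-1* mutants and 161 (1.18%) at least 2-fold lower. Of the 1225, 805 (65.7%) were below 0 in batch 3 and 150 (12.2%) were also 2-fold higher there. Of the 161, 24 (14.9%) were above 0 in batch 3 and 86 (53.4%) were also 2-fold lower. Over all 13650 tested entries the batch 3 median was −0.06, so most lay below 0 there. In that batch 875 of them were at least 2-fold higher and 452 at least 2-fold lower. Taking batches 1 and 3 first, 150 of 502 higher entries (29.9%) and 86 of 134 lower entries (64.2%) met the same description in batch 2.

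**Figure D3:**
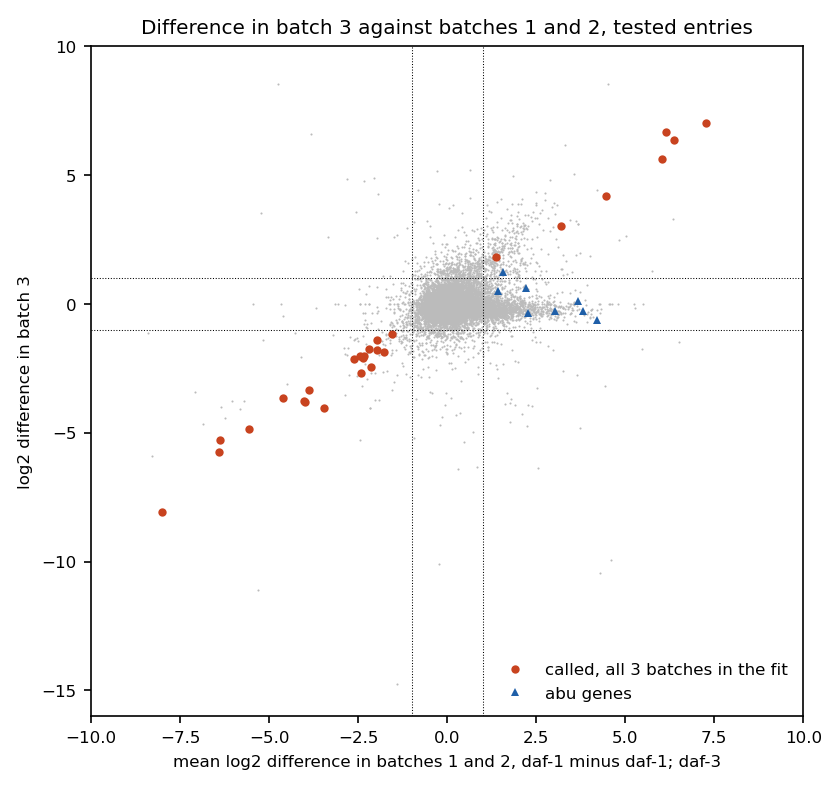
Log2 difference in batch 3 against the mean of batches 1 and 2 for the tested entries, with the 27 called entries and the *abu* genes marked and dotted lines at 2-fold. Called entries lie near the diagonal, which follows from their selection, since the blocked fit calls entries whose batches agree. A band of entries extends to the right at a difference near 0 in batch 3, with most *abu* genes in it.

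The *abu* genes and related *pqn* genes, which encode glutamine- and asparagine-rich secreted proteins and of which many belong to the pharyngeal cuticle, had a wide gap of this kind. *abu-8* was at 16.7, 30.8 and 41.5 FPKM in *daf-1* mutants and at 0.924, 1.05 and 63.9 in double mutants. *abu-11* was at 11.1, 17.2 and 24.6 against 0.460, 1.46 and 22.9. In both genes double mutant replicate 3 lay with the *daf-1* libraries and not with its own genotype. N2 had 2.19, 10.4 and 25.0 FPKM of *abu-8* and 1.73, 4.26 and 13.4 of *abu-11*, so that batch 3 was the highest in all 3 genotypes. The log2 differences of *abu-8* (2.61, SE 1.02) and *abu-11* (2.48, SE 0.77) had an adjusted p of 0.272. Over 22 tested members the median was 2.87, 2.66 and −0.09 in batches 1, 2 and 3. limma called none of the 22, of which 16 were higher and 1 lower at an unadjusted p below 0.05 (8.56% and 9.51% of all tested entries). Without double mutant replicate 3, 13 were called higher and 1 lower, against 5.31% and 0.789% of all entries tested there.

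Furrow collagens, cuticlins and hedgehog-related genes had medians above 0 in batches 1 and 2 and near 0 in batch 3 as well. The 6 furrow collagens, whose loss gives dumpy worms, had medians of 2.09, 1.79 and −0.10 in the 3 batches, and 26 cuticlins 1.51, 1.32 and −0.19. At an unadjusted p below 0.05 in limma, 3 of the 6 and 5 of the 26 were higher and 0 lower, and 0 were called. Over all tested entries the shares at that p were 8.56% higher and 9.51% lower. Without double mutant replicate 3, 4 furrow collagens and 9 cuticlins were called higher and 0 lower, against 5.31% and 0.789% of all entries tested there. *dpy-7* was at 47.4, 54.7 and 54.2 FPKM in *daf-1* mutants and at 8.66, 12.8 and 65.2 in double mutants, with 30.5, 37.5 and 66.9 in N2. The cuticlin and hedgehog-related lists were highest in batch 3 in N2 too. Relative to each gene's mean over the 9 libraries, their mean log2 levels in N2 were −0.25, −0.07 and 0.69, and −0.40, −0.26 and 0.37. Hedgehog-related and patched-related genes, many of them made in the epidermis, had 1.18, 0.96 and −0.03 over 63 members, with 20 higher and 0 lower at an unadjusted p below 0.05 and 0 called in limma, but 20 called higher and 0 lower without double mutant replicate 3. One of them, *wrt-8*, was higher in each batch (log2 difference 2.81, SE 0.35) and lay nearest to the threshold (adjusted p = 0.0895). Genes of the molting cycle had smaller medians in batches 1 and 2. Of 30 tested genes of the molting matrix and its enzymes 5 were higher and 2 lower at an unadjusted p below 0.05, with medians of 0.79, 0.49 and −0.23, and of 14 molting timers 2 were higher and 0 lower, with medians of 0.65, 0.74 and −0.18. limma called 0 in both lists. Without double mutant replicate 3, 11 and 4 were called higher and 0 lower, against the same 5.31% and 0.789% of all entries tested there. *hbl-1* and *lin-42*, regulators of developmental timing, were at 14.8, 20.6 and 109 and at 9.64, 9.71 and 37.2 FPKM in double mutants, against 74.5 to 87.4 and 30.0 to 32.7 in *daf-1* mutants.

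Ciliary genes had the same order of batches, and neuronal lists had it with smaller differences in batches 1 and 2. The 32 ciliary transport genes had medians of 1.38, 1.11 and −0.21, 31 and 32 of them being higher in *daf-1* mutants in batches 1 and 2 and 6 in batch 3. *che-11*, a gene of intraflagellar transport, was at 1.22, 1.01 and 1.53 FPKM against 0.0980, 0.231 and 1.58. In N2 the ciliary list was highest in batch 3 too, at mean log2 levels of −0.27, −0.22 and 0.58. These levels are relative to each gene's mean over the 9 libraries, and were 0.25 to 0.48 in *daf-1* mutants. None of the 32 was called or had an unadjusted p below 0.05 in limma. Medians of 28 neuronal marker genes were 0.62, 0.27 and −0.05, and those of 18 genes of pharyngeal muscle and its regulators 1.12, 0.66 and −0.13. Of these, 1 neuronal gene was lower and 4 pharyngeal genes were higher at an unadjusted p below 0.05, and limma called 0. Without double mutant replicate 3, 2 ciliary, 3 neuronal and 5 pharyngeal genes were called higher and 0 lower. Of all entries tested there, 5.31% were called higher and 0.789% lower. The 62 FLP and NLP neuropeptide genes had medians of 0.15, −0.08 and −0.28. Of the 62, 6 were higher and 17 lower in each batch, as were 16.6% and 27.2% of all tested entries. At an unadjusted p below 0.05, 2 were higher and 4 lower (8.56% and 9.51% of all tested entries). limma called 0 of them, and 0 higher and 1 lower without double mutant replicate 3.

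**Figure D4:**
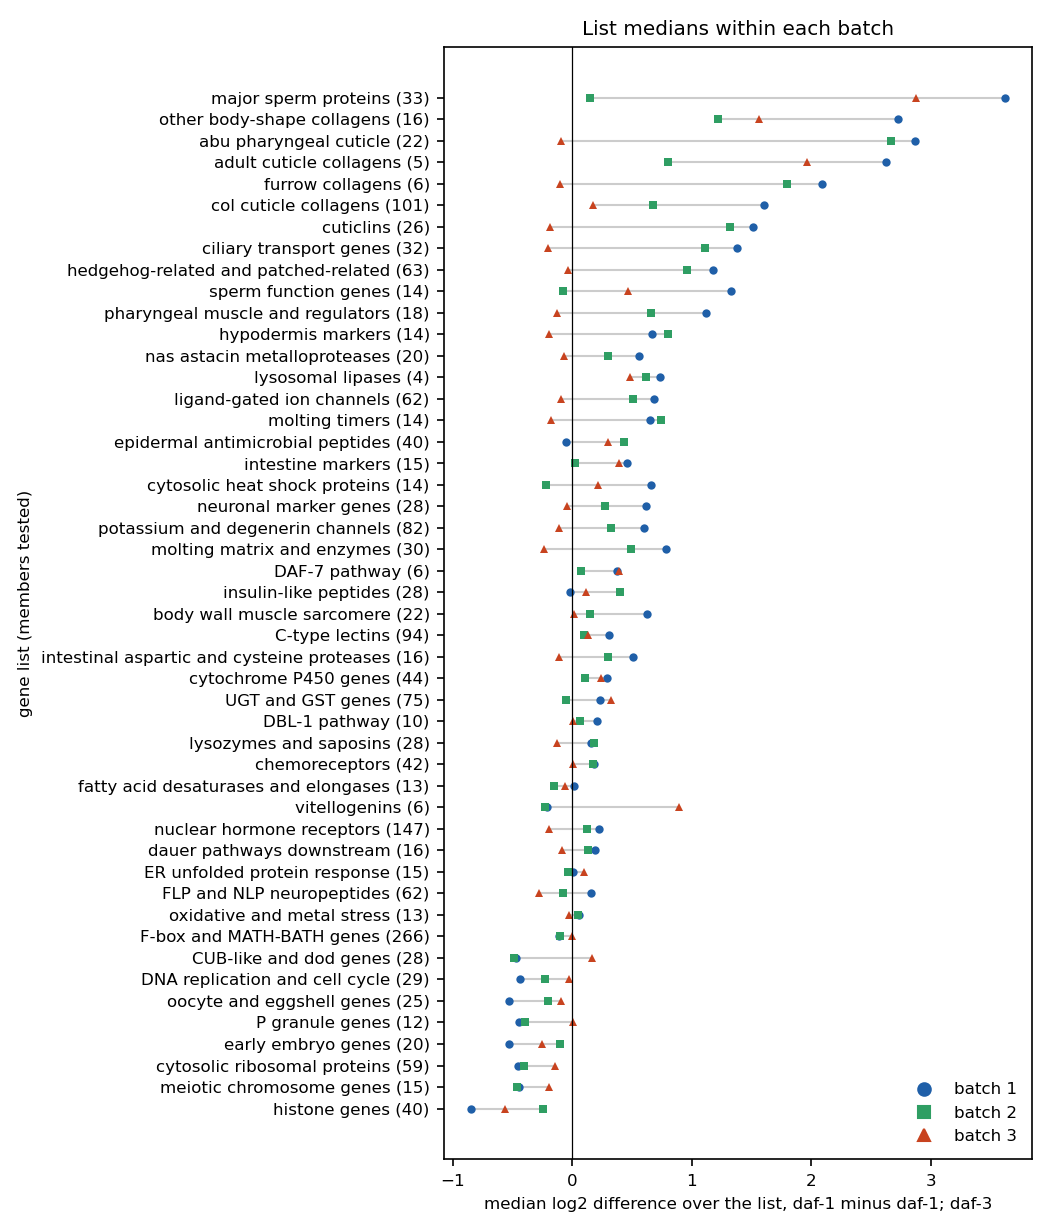
Median log2 difference, *daf-1* minus double mutant, over each gene list within batches 1, 2 and 3, with the number of tested members in parentheses. The *abu*, furrow collagen, cuticlin and ciliary lists have batch 3 near 0 and batches 1 and 2 above 1, while major sperm proteins and other body-shape collagens are lowest in batch 2.

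Body-shape collagens outside the furrow group were higher in *daf-1* mutants in more of the batches. Over 16 members the medians were 2.73, 1.22 and 1.56, 13 were higher and 0 lower at an unadjusted p below 0.05, and limma called 0 (3 higher and 0 lower without double mutant replicate 3). *dpy-13* was at 14.1, 12.1 and 7.61 FPKM in *daf-1* mutants and at 0.290, 4.98 and 0.734 in double mutants, and *bli-6* at 29.2, 30.8 and 18.8 against 1.93, 13.2 and 0.687. For both genes the double mutant nearest to the *daf-1* libraries was replicate 2, and N2 had 0.588 to 0.966 and 2.16 to 3.78 FPKM. The log2 differences were 2.99 (SE 0.66, adjusted p = 0.231) for *dpy-13* and 3.10 (SE 0.62, adjusted p = 0.201) for *bli-6*. The list was not uniform: 8 of the 16 were at least 2-fold higher in each batch, and 5 were below 0 in batch 3, such as *sqt-3*, at 576, 731 and 765 against 103, 130.3 and 1033 FPKM. Of 101 tested *col* genes 41 were higher and 6 lower at an unadjusted p below 0.05, and 0 were called. Of all tested entries, 8.56% were higher and 9.51% lower at that p. The medians of the *col* genes were 1.60, 0.67 and 0.18 in the 3 batches and 1.01 over all of them. Without double mutant replicate 3, 20 were called higher and 6 lower, against 5.31% and 0.789% of all entries tested there. The adult collagen gene *col-19* overlapped between the genotypes, at 1350.1 to 1986 and 731 to 2991 FPKM.

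Major sperm protein genes, which encode the motility protein of nematode sperm, had medians of 3.62, 0.15 and 2.87 over 33 members. At an unadjusted p below 0.05, 27 were higher and 0 lower (8.56% and 9.51% of all tested entries). The levels were low: *msp-53* was at 3.32, 5.13 and 3.29 FPKM in *daf-1* mutants and at 0, 3.12 and 0.183 in double mutants, with 0.154 to 0.859 in N2. Double mutant replicate 2 was thus close to the *daf-1* libraries, and replicates 1 and 3 were near 0. limma called none of the 33 (the adjusted p of *msp-53* was 0.271). Of 14 other genes of sperm function 5 were higher and 1 lower at an unadjusted p below 0.05 and 0 were called, with medians of 1.33, −0.08 and 0.47. Major sperm protein genes are near-identical copies, so reads may be divided among them and single members are uncertain.

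**Figure D5:**
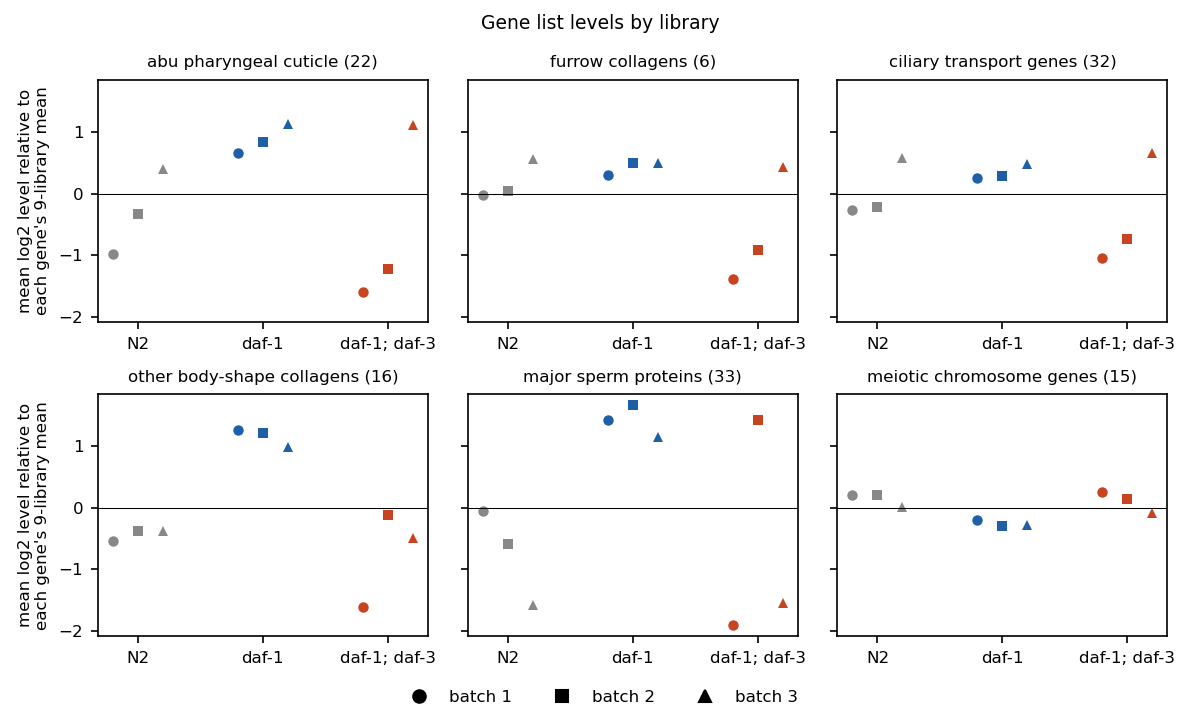
Mean log2 level of 6 gene lists in each library, relative to each gene's mean over the 9 libraries, by genotype, with symbols for batches 1, 2 and 3. For the *abu* list double mutant replicate 3 lies at 1.11, beside the *daf-1* libraries (0.67 to 1.13) and above replicates 1 and 2 (−1.60 and −1.23), whereas for major sperm proteins it is replicate 2, at 1.43, that lies among the *daf-1* libraries (1.15 to 1.67).

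Apart from the sperm genes, germline lists and ribosomal protein genes had medians below 0 in batches 1 and 2, by less than 2-fold. Of 15 genes of meiotic chromosomes with an entry of their own, 13 were lower in *daf-1* mutants in each batch and 10 were lower and 0 higher at an unadjusted p below 0.05, with medians of −0.45, −0.47 and −0.20. *syp-1*, which encodes a protein of the synaptonemal complex, was at 30.7, 31.3 and 28.8 FPKM in *daf-1* mutants and at 42.9, 43.9 and 42.3 in double mutants, and N2 had 38.6 to 43.1. The difference of *syp-1* was −0.51 (SE 0.11, adjusted p = 0.219) and that of *him-3*, a gene of the chromosome axis, −0.56 (SE 0.12, adjusted p = 0.221). Cytosolic ribosomal proteins had 50 of 59 members lower in each batch and 20 lower and 0 higher at an unadjusted p below 0.05, with medians of −0.45, −0.40 and −0.14. Oocyte and eggshell genes had 8 of 25 lower and 0 higher at that p, with medians of −0.53, −0.21 and −0.09. P granule genes had 4 of 12 lower and 0 higher, with medians of −0.45 and −0.40 in batches 1 and 2, and in batch 3 6 of the 12 were higher. Histone genes, many of them near-identical copies whose values are uncertain, had 12 of 40 lower and 3 higher. limma called 0 members of these lists, and without double mutant replicate 3 it called 1 histone gene higher and no other member. That fit called 5.31% of all its entries higher and 0.789% lower. Of all tested entries, 27.2% were lower in each batch and 9.51% lower at an unadjusted p below 0.05.

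A few genes of batch 3 lay well past the *daf-1* level, in the opposite direction to batches 1 and 2. Without double mutant replicate 3, 484 single-gene entries with a mean of at least 5 FPKM were called higher in *daf-1* mutants, and 374 of them were below 0 in batch 3. The larger genotype mean was used, over all 3 libraries, so a high value in double mutant replicate 3 could let an entry pass. The batch 3 median of all tested entries was itself below 0, at −0.06. *mtl-1*, a metallothionein gene, lay farthest, at 93.7, 58.4 and 76.6 FPKM in *daf-1* mutants against 27.3, 13.9 and 357 in double mutants. In the other direction 12 of 86 such entries were above 0 in batch 3. Among them the tubulin gene *tbb-6* was at 5.01, 5.06 and 7.32 against 25.0, 33.8 and 4.81 FPKM, and *sdz-6* at 7.31, 4.69 and 4.89 against 19.2, 17.7 and 2.17. With all 3 batches, the adjusted p values of *mtl-1*, *tbb-6* and *sdz-6* were 0.707, 0.282 and 0.465. The part of batch, and of this 1 library, in these patterns was not tested.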

How the data were processed

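According to the methods and the labels, the authors extracted total RNA of whole worms and sequenced it after poly(A) selection, which can distort levels of RNAs without a poly(A) tail. Their processing used bcl2fastq 1.8.4 for demultiplexing, Trim Galore 0.4.0 for trimming, TopHat2 2.0.12 for alignment to WBcel235 and Cufflinks (version 2.21 in the labels) for abundance. The deposited values are FPKM, which the authors computed per library, 1 row per locus, so that 1861 of the 13650 tested entries join several genes. 0 columns belonged to no sample, and 186 rows that name no gene (0.0502 to 0.257% of a library's FPKM) were left out. Counts were not used here, so counting error is unknown, and precision can be judged only from how far replicates lie apart.

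Differences were fitted on log2(FPKM + 0.25) by limma 3.58.1 under R 4.3.3, with the replicate number as a block, empirical Bayes moderation and a variance trend (2 residual degrees of freedom), after a check on simulated data. p-values are two-sided and adjusted over all tested entries. The study calls its biological replicates batches. Deviations from the genotype means had correlations of 0.156, 0.099 and 0.293 between same-numbered libraries and −0.199 to 0.101 between others. Positions for 98.97% of entries come from the annotation of WBcel235. Tables used Python 3.11.15 with pandas 2.3.3 and matplotlib 3.10.9.

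The 49 gene lists, the members and the alternatives (block, N2 in the fit, library weights, pseudocount, filter, scaling, joined entries, variance trend, thresholds and each library left out) were chosen with earlier results of these data known. Named genes follow a rule: the DAF-7 pathway, genes next to *daf-3* near 0 in every double mutant, the 12 highest and 12 lowest called differences among single-gene entries without overlap and with a mean of at least 5 FPKM, the 4 smallest p of each list, genes the study measured or named, and the 5 genes in each direction that lie farthest on the other side of 0 in batch 3. Genes named beside a region, a family or a count, such as *pud-3*, *gpx-3*, C10C5.4, F59C6.18, *che-11*, *hbl-1*, *lin-42*, *mam-1*, *mab-7*, *sqt-3*, *col-19* and *msp-53*, were chosen after their values were seen.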

Additional observations from a re-analysis of the deposited data

How the results depend on the processing

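All 27 called entries kept their direction in every refit in which they were tested, and none of the named values reversed as a call. The number of calls did not hold. Against 27 entries (7 higher and 20 lower in *daf-1* mutants), the fit with no replicate block called 59 (21 and 38), the fit with N2 in it 218 (131 and 87), library weights 1362 (1162 and 200), and an adjusted p below 0.1 gave 58 (20 and 38). No filter on low values, which tests 18920 entries, left 7 (3 and 4), and so did no variance trend, with 7 (4 and 3). The library weights were 0.947, 2.85 and 0.371 for batches 1, 2 and 3. The pseudocount, a stricter filter, quantile normalization, median ratio scaling, joined entries and the fold minimum left 24 to 32.

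Leaving out 1 library at a time gave 7 to 1751 calls, 3 to 1560 higher and 4 to 191 lower. With the replicate block, the paired analysis gave 819 without double mutant replicate 3 and 881 without *daf-1* replicate 3, 204 and 158 without *daf-1* or double mutant replicate 2, 22 without *daf-1* replicate 1 and 7 without double mutant replicate 1. The higher and lower calls were 713 and 106, 759 and 122, 147 and 57, 108 and 50, 5 and 17, and 3 and 4, in the same order. With no block the calls were 1751 (1560 higher and 191 lower) and 200 (157 and 43) without double mutant replicates 3 and 2, 31 (11 and 20) without its replicate 1, and 16 (4 and 12), 23 (7 and 16) and 24 (11 and 13) without *daf-1* replicates 1, 2 and 3. The share of calls that were higher in *daf-1* mutants was 25.9% with all libraries and 87.1% without double mutant replicate 3. FPKM values keep no depth, so how far depth limits low genes such as *ins-6* or *che-11* is unknown.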
